A study of Saccharomyces cerevisiae with 10 samples.

Results

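The stretch from codon 21 to codon 100 of yeast coding sequences, the 5′ ramp, was examined in ribosome footprints of 5 strains of Saccharomyces cerevisiae S288C. A gene was included when its coding sequence, stop codon counted, had at least 200 codons and when it held at least 500 footprints in each of the 5 libraries. This left 1562 of the 5373 genes listed in any of the tables, and 4089 of the 4964 genes listed in all 5 tables had the length. The footprint libraries represent ribosome-protected fragments, each assigned by the authors to the codon being decoded. For each gene, the ramp ratio is the mean number of footprints per codon over codons 21 to 100 divided by the mean over all codons past 100, leaving out the stop codon, so a ratio of 1 means equal density in both stretches.

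The strains were ACA-K, AGG-OE, AGG-QC, WT-URA and WT, with 1 footprint library and 1 mRNA library each. ACA-K lacks 3 of the 4 genes for the threonine tRNA that reads ACA, namely tT(UGU)G2, tT(UGU)H and tT(UGU)P, replaced by the NAT, KAN and HYG markers, and carries no plasmid. AGG-OE carries tR(CCU)J, the arginine tRNA gene that reads AGG, on the high-copy URA plasmid pRS426. AGG-QC carries on the same plasmid tR(UCU)B with its anticodon changed to CCU, so that the body of another arginine tRNA reads AGG. WT-URA is the wild type with the empty pRS426, and WT is the wild type with no plasmid. The tRNA genes themselves were not measured here, so the tRNA changes were not checked against these counts. The paper reports its own checks of tRNA amounts. It found less of the ACA-reading tRNA in ACA-K and more of the AGG-reading tRNA in AGG-OE. In AGG-QC it found charged AGG-reading tRNA at a level similar to wild type. All cultures were grown to an OD of 0.6, filtered and frozen in liquid nitrogen, and each mutant was compared with the wild type of the same plasmid status. The paper names rich medium for its wild-type data and selection without uracil for making AGG-OE. It does not give the medium of each library. With 1 library per strain there is no replicate error anywhere, no p-value is given, and a difference between strains cannot be told apart from a difference between libraries.

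Footprints in the tables totalled 21855176 in ACA-K, 9127829 in AGG-OE, 6011287 in AGG-QC, 8552107 in WT-URA and 29706058 in WT, so that the 3 libraries of plasmid strains were all shallower than the 2 of plasmid-free strains. The members held 67.7% to 72.5% of them. The median member had 708.5 ramp footprints in ACA-K, 323.5 in AGG-OE, 233 in AGG-QC, 312.5 in WT-URA and 933 in WT. Codons with no footprint made up between 23.1% and 34.0% of all ramp codons in ACA-K and the plasmid strains and 10.3% in WT.

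A ribosome that has just begun translation moves through the first codons while its nascent chain is still inside the exit tunnel of the large subunit, and the chain emerges from the tunnel further on. Footprint density is known to be higher over the first part of yeast coding sequences than further downstream, and this excess is called the ramp. Since a ribosome leaves its footprint where it stands, a higher density can mean that each spent longer there or that fewer ribosomes went on. Density also depends on which footprints are recovered and mapped, and the paper names possible biases by position and by mRNA in such data.

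Density over codons 21 to 100 was above the density past codon 100 in most genes of every library, but the shape of the excess differed between libraries. In the plasmid strains the median density over genes declined along the stretch, from its first window in AGG-QC and WT-URA and after codon 40 in AGG-OE. In codons 21 to 30 it was 1.60 times the downstream mean in AGG-OE, 1.74 times in AGG-QC and 2.11 times in WT-URA, and in codons 91 to 100 it was 1.26, 1.23 and 1.29 times in the same 3 libraries. In the plasmid-free strains it formed a low hump instead. The median density in codons 21 to 30 was 1.23 times the downstream mean in ACA-K and 1.17 times in WT, the highest window was codons 41 to 50 with 1.36 in ACA-K and 1.37 in WT, and codons 91 to 100 stood at 1.12 in ACA-K and 1.19 in WT. The excess did not stop at codon 100. The median fell below 1 at codons 131 to 140 in ACA-K and at codons 161 to 170 in AGG-QC. It did so at codons 171 to 180 in AGG-OE and WT-URA. In WT it stood at 1.0 over codons 161 to 180 and lower after that. These crossings do not mark where the excess ends, since the downstream mean includes the same codons. In windows of 20 codons, ACA-K still stood at 1.09 over codons 121 to 140 and at 1.04 over codons 141 to 160. In 793 longer genes set against codons past 400, the median in ACA-K was 1.32 over codons 121 to 140. Over the libraries, the medians of those genes lay between 1.01 and 1.07 at codons 281 to 300. At codons 361 to 380 they lay between 0.92 and 0.99.

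**Figure D1:**
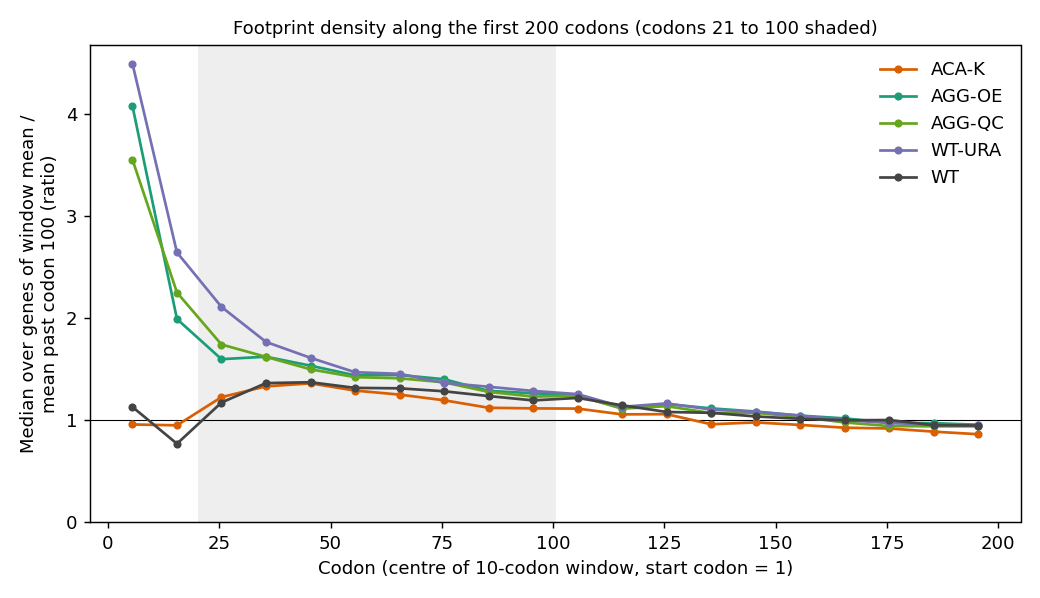
Median footprint density over the 1562 genes in windows of 10 codons, as a ratio to each gene's own mean past codon 100 (y axis), against the codon at the centre of the window (x axis), with 1 line per library and codons 21 to 100 shaded. The 3 plasmid libraries descend across the shaded stretch from between 1.60 and 2.11, and ACA-K and WT form a hump with a top of 1.36 and 1.37.

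The first 20 codons, just before the ramp, set the libraries apart most. Over codons 1 to 20 the median density was 3.19 times the downstream mean in AGG-OE, 3.06 times in AGG-QC and 3.73 times in WT-URA, against 1.05 times in ACA-K and 1.0 times in WT. These codons held 11.4%, 10.7% and 12.0% of all members' footprints in AGG-OE, AGG-QC and WT-URA, and 4.63% and 4.54% in ACA-K and WT. The early part of the ramp adjoins this stretch, and the block of 20 codons with the highest density within the ramp was codons 21 to 40 in 27.8% of genes in ACA-K, 33.1% in AGG-OE, 40.1% in AGG-QC, 48.5% in WT-URA and 24.3% in WT. Codons 21 to 60 had the higher mean than codons 61 to 100 in 57.2% of genes in ACA-K, 59.3% in AGG-OE, 63.1% in AGG-QC, 69.4% in WT-URA and 52.8% in WT.

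Taken over the whole stretch, the median ramp ratio was 1.44 in ACA-K, 1.58 in AGG-OE, 1.58 in AGG-QC, 1.68 in WT-URA and 1.39 in WT. The middle 50% of genes lay between 1.13 and 1.84 in ACA-K, between 1.25 and 2.04 in AGG-OE, between 1.25 and 2.02 in AGG-QC, between 1.33 and 2.17 in WT-URA and between 1.12 and 1.75 in WT, so that the spread between genes within a library was wider than any gap between libraries. The ratio was 1.5 or more in 45% of genes in ACA-K, 55.5% in AGG-OE, 55.4% in AGG-QC, 62.4% in WT-URA and 42% in WT. It was below 1 in 15.4% of genes in ACA-K, 8.07% in AGG-OE, 9.09% in AGG-QC, 5.89% in WT-URA and 15.2% in WT. A ratio above 1 in all 5 libraries was found for 1174 genes, 75.2% of the total, and a ratio of 1.5 or more in all 5 for 449 genes, or 28.7%. Only 42 genes, 2.69%, lay below 1 in all 5. With a geometric mean of counts plus 1 in place of the mean, the median ratios were 1.31 in ACA-K, 1.30 in AGG-OE, 1.25 in AGG-QC, 1.33 in WT-URA and 1.31 in WT, so the order of the libraries depends on the measure. Among genes with at least 2000 footprints in every library it gave 1.39, 1.43, 1.38, 1.47 and 1.37 in the same order. The added 1 draws ratios closer to 1 where counts are low, as in the shallower plasmid libraries. How much of the change comes from depth was not tested.

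**Figure D2:**
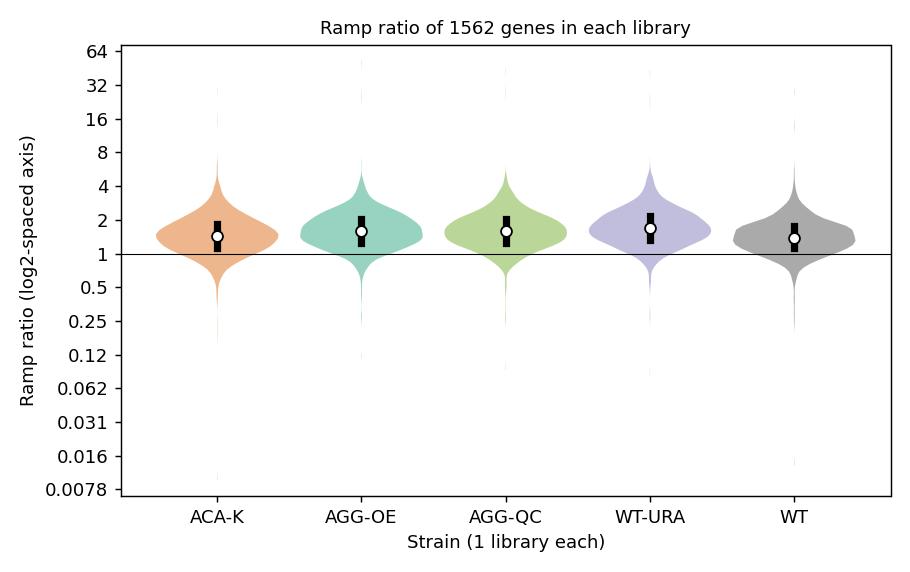
Ramp ratio of the 1562 genes in each library on a log2-spaced axis, with the outline showing how genes are distributed, the thick bar the middle 50% of genes and the white point the median. The medians are 1.44, 1.58, 1.58, 1.68 and 1.39 from left to right, and each library has genes on both sides of 1.

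Which genes had a high ratio was largely shared between libraries. Across the 1562 genes, Spearman's rho of the ramp ratio was between 0.91 and 0.92 for the 3 pairs of plasmid libraries and 0.81 for ACA-K and WT, and it was between 0.61 and 0.78 for the 6 pairs of a plasmid and a plasmid-free library. The footprint pattern within the ramp followed the same grouping. The median over genes of the Pearson correlation of log2(count + 1) over the 80 ramp codons was 0.77 to 0.79 between plasmid libraries, 0.65 between ACA-K and WT and 0.50 to 0.57 across. All these correlations are over genes or codons of single libraries, which also share depth by group.

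Ramp footprints were unevenly spread over single codons. The codon with the most footprints held 10.9% of the ramp footprints of the median gene in ACA-K, 10.2% in AGG-OE, 10% in AGG-QC, 9.55% in WT-URA and 7.57% in WT. The highest of 80 sparse counts exceeds an even share through sampling alone. The median gene had only 233 ramp footprints in AGG-QC and 933 in WT. How much of the share comes from sampling was not tested. It was the same codon in 50.6% to 53.0% of genes between plasmid libraries, in 34.2% between ACA-K and WT, in 18.8% to 24.7% between a plasmid and a plasmid-free library, and in all 5 libraries in 124 genes (7.94%). RPL2A, a protein of the large ribosomal subunit with a near-identical copy, had the largest share at 1 codon of all members in AGG-OE, AGG-QC and WT-URA. Its codon 21 held 38.4% of the ramp footprints in ACA-K, 54.3% in AGG-OE, 54.8% in AGG-QC, 59.1% in WT-URA and 51.6% in WT.

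The highest ratios belonged to the glyceraldehyde-3-phosphate dehydrogenases of glycolysis. TDH2 had a ramp ratio of 30.4 in ACA-K, 52.7 in AGG-OE, 45.1 in AGG-QC, 43.0 in WT-URA and 29.5 in WT. TDH3, the most abundant of the 3 isozymes, had 15.5 in ACA-K, 25.3 in AGG-OE, 27.4 in AGG-QC, 22.8 in WT-URA and 13.8 in WT. Both were higher in each plasmid library than in ACA-K and WT. In WT, TDH2 held 32798 ramp and 3225 downstream footprints and TDH3 held 209851 ramp and 44205 downstream footprints. No library had any footprint over 54 codons of TDH2 from codon 124 or over 47 codons of TDH3 from codon 125. TDH1, the third isozyme, had 3.63 in ACA-K, 4.54 in AGG-OE, 4.57 in AGG-QC, 4.74 in WT-URA and 3.84 in WT, and an empty run of 33 codons. The 3 genes are close copies of each other, and the authors kept only reads that mapped to 1 place.

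The Hsp70 chaperones SSB1 and SSB2, which bind nascent chains at the ribosome, form a similar pair. SSB2 had a ramp ratio of 4.91 in ACA-K, 6.18 in AGG-OE, 4.97 in AGG-QC, 6.11 in WT-URA and 5.34 in WT, and SSB1 had 4.64, 3.97, 3.29, 4.37 and 3.93 in the same order. In both genes the same 178 codons from codon 162 on had no footprint in any library. Their excess lay in codons 41 to 60, where the density of SSB2 was 14.9 times its downstream mean in ACA-K, 19.0 times in AGG-OE, 14.3 times in AGG-QC, 17.2 times in WT-URA and 16.8 times in WT. In all, 42 members had an empty run of 20 codons or more. Leaving them out gave median ratios of 1.44 in ACA-K, 1.58 in AGG-OE, 1.57 in AGG-QC, 1.68 in WT-URA and 1.39 in WT, and the part of read mapping in single ratios was not tested.

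BLM10 reached a high ratio with no such gap. It encodes a large activator that binds the proteasome core, and with 2144 codons it is one of the long members. Its ramp ratio was 5.99 (95% counting interval 5.47 to 6.55) in ACA-K, 4.00 (3.34 to 4.77) in AGG-OE, 3.53 (2.87 to 4.30) in AGG-QC, 4.70 (3.93 to 5.59) in WT-URA and 5.46 (5.04 to 5.91) in WT. Here the plasmid-free libraries were the higher ones. The excess began at the start of the stretch, with codons 21 to 40 at 13.1 times the downstream mean in ACA-K and 10.9 times in WT. These intervals are exact binomial ones on the split of footprints between ramp and downstream codons, and they cover counting error only, since amplified reads are not independent molecules.

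Of the 6 genes with the lowest ratios, NOP1, NSR1 and SRP40 encode proteins of the nucleolus, where ribosomes are assembled, while UTP20 and DIP2, nucleolar proteins of the small subunit processome, were among the high ones. NOP1, the fibrillarin methyltransferase that modifies ribosomal RNA, had a ramp ratio of 0.44 in ACA-K, 0.28 in AGG-OE, 0.26 in AGG-QC, 0.29 in WT-URA and 0.30 in WT. In every library its density was lowest in codons 41 to 60, at 0.20 in ACA-K, 0.052 in AGG-OE, 0.011 in AGG-QC, 0.056 in WT-URA and 0.069 in WT, and codons 81 to 100 stood between 0.62 and 0.98. NSR1, a nucleolar protein of ribosomal RNA processing, had 0.39 in ACA-K, 0.40 in AGG-OE, 0.33 in AGG-QC, 0.47 in WT-URA and 0.23 in WT. SRP40, a serine-rich nucleolar protein, had 0.54 in ACA-K, 0.43 in AGG-OE, 0.46 in AGG-QC, 0.56 in WT-URA and 0.26 in WT. All 3 stayed below 1 in all 5 libraries, and WT was the lowest library for NSR1 and SRP40 but not for NOP1.

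UTH1, a cell wall protein of the SUN family, split by plasmid. Its ramp ratio was 0.62 in ACA-K, 0.27 in AGG-OE, 0.27 in AGG-QC, 0.27 in WT-URA and 0.55 in WT, so all 3 plasmid libraries were lower than both plasmid-free ones. RPL8A, of the large ribosomal subunit, had 0.24 in ACA-K, 0.52 in AGG-OE, 0.54 in AGG-QC, 0.55 in WT-URA and 0.30 in WT. It shares with its near-identical copy RPL8B an empty run of 20 codons from codon 64, inside the ramp, and no block of the ramp past codon 60 exceeded 0.10.

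DDR48, a stress-induced gene, and YMR173W-A lay at opposite ends of the range. DDR48 had a ramp ratio of 2.96 in ACA-K, 4.44 in AGG-OE, 5.04 in AGG-QC, 4.45 in WT-URA and 2.89 in WT, among the highest 6, and YMR173W-A had 0.0095, 0.12, 0.091, 0.082 and 0.013 in the same order, the lowest of all. DDR48 had an empty run of 66 codons from codon 113, in its downstream stretch, and YMR173W-A one of 67 codons from codon 43, inside its ramp. The count lists of both matched codon by codon when shifted by 69 codons, or 70 in WT, with Pearson's r of log2(count + 1) between 0.94 and 0.96 over 361 or 362 codons. At this shift the empty runs fall on each other, and codons empty in both lists count toward r. The tables thus list largely the same footprints under both names.

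**Figure D3:**
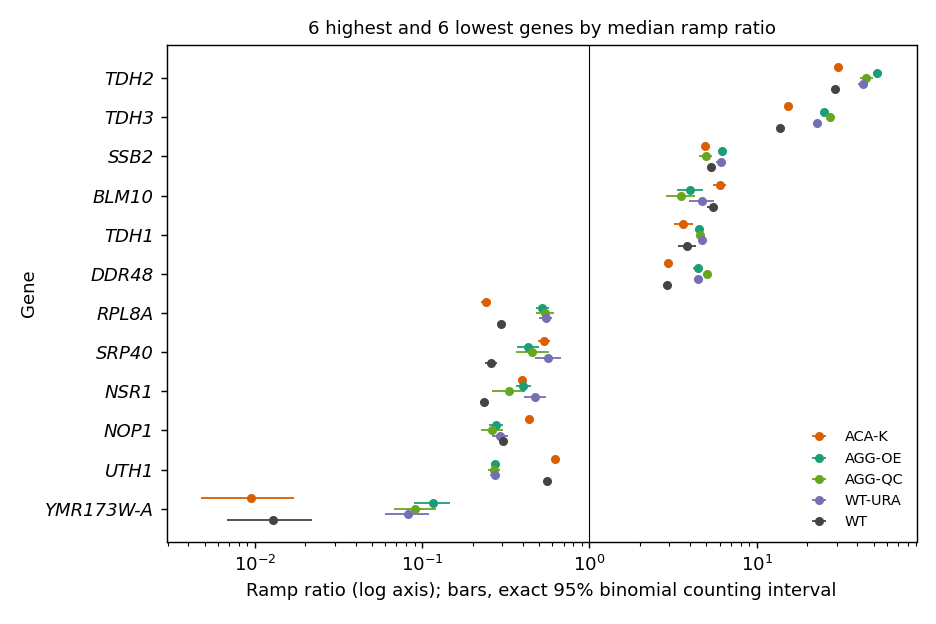
Ramp ratio on a log axis of the 6 genes with the highest and the 6 with the lowest median over the 5 libraries, 1 point per library, with exact 95% binomial counting intervals as bars. TDH2 and TDH3 lie to the right of all others, from 13.8 to 52.7, and YMR173W-A to the left of all others, at 0.12 or less.

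Groups of genes with a shared function differed in how strong their ramp was. Each group is described by the median over the 5 libraries of each gene's ramp ratio, which over all 1562 genes had a median of 1.56 and was 1.5 or more in 54.5% of genes. The groups were compiled from general knowledge with 340 genes in 12 lists, of which 273 were members.

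Transporters and pumps that cross the plasma membrane many times stood highest by this measure. Of 19 such members, 17 had a median of 1.5 or more and none was below 1, and the group median was 2.29. LYP1, the lysine permease, had a ramp ratio of 2.04 in ACA-K, 3.44 in AGG-OE, 3.35 in AGG-QC, 3.54 in WT-URA and 2.87 in WT. HXT3, a glucose transporter, had 3.76 in ACA-K, 3.60 in AGG-OE, 3.22 in AGG-QC, 3.35 in WT-URA and 2.61 in WT, with an empty run of 45 codons from codon 454 that lies in its downstream stretch. The inositol transporter ITR1 was the lowest, with 1.26 in ACA-K, 1.34 in AGG-OE, 1.20 in AGG-QC, 1.5 in WT-URA and 0.91 in WT. The excess within the ramp was largest in codons 61 to 80 in all libraries but WT-URA. In these codons the group's median density was 2.75 times the downstream mean in ACA-K, 2.57 in AGG-OE, 2.78 in AGG-QC, 2.64 in WT-URA and 2.54 in WT, beside 1.33, 1.48, 1.45, 1.48 and 1.36 over all genes. In WT-URA codons 21 to 40 were slightly higher, at 2.71. High density in these genes ran past the ramp, since codons 121 to 140 still stood between 1.67 and 1.97 in the 5 libraries, against 1.09 to 1.19 over all genes. Set against codons up to 200 only, the group median was 1.35, beside 1.34 for all genes. With a geometric mean it was 1.55, with 12 of 19 at 1.5 or more, beside 1.30 and 24.4% for all genes, and glycolytic enzymes were then the highest group at 1.86.

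Proteins that enter the secretory pathway through a cleaved signal peptide had a ramp close to that of all genes and a lower density after it. The group of 27 secreted and ER lumen proteins had a median ratio of 1.54, with 14 at 1.5 or more and 4 below 1. Their density was highest at codons 41 to 60 in ACA-K and WT (1.54 in each) and at codons 21 to 40 in AGG-OE, AGG-QC and WT-URA (1.70, 1.66 and 1.99, in that order), the same blocks as over all genes. Past the ramp it was below 1, between 0.72 and 0.97 in codons 121 to 140 of the 5 libraries, beside 1.09 to 1.19 over all genes. GAS3, a cell wall glucanosyltransferase family member, was the highest, with a ramp ratio of 2.77 in ACA-K, 2.20 in AGG-OE, 1.80 in AGG-QC, 2.07 in WT-URA and 2.18 in WT. EXG1, an exoglucanase of the cell wall, had 1.5 in ACA-K, 2.27 in AGG-OE, 2.07 in AGG-QC, 2.33 in WT-URA and 1.27 in WT. UTH1, described above, was the lowest.

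Enzymes of central metabolism lay above the median of all genes. Of 16 glycolytic enzymes 14 had a median of 1.5 or more, with a group median of 1.89. Of these, TDH1, TDH2, TDH3, ENO1 and ENO2 have near copies and an empty run, and without these the median of the other 11 was 1.69. PGK1, phosphoglycerate kinase, was the lowest, between 1.17 in AGG-QC and 0.95 in WT. Mitochondrial enzymes had a median of 1.74, with 20 of 30 at 1.5 or more. One of these, PMR1, is a Golgi calcium pump that had been placed in the list in error, and the other 29 had a median of 1.71. LEU4, the mitochondrial α-isopropylmalate synthase, was the highest, with 3.86 in ACA-K, 4.10 in AGG-OE, 4.32 in AGG-QC, 4.15 in WT-URA and 3.43 in WT. PDA1, a subunit of pyruvate dehydrogenase, lay between 2.94 in AGG-QC and 2.18 in WT, and KGD2, of α-ketoglutarate dehydrogenase, between 1.0 in AGG-OE and 0.76 in WT. Cytosolic enzymes of amino acid synthesis had a median of 1.70, with 24 of 34 at 1.5 or more. Without genes that have near copies, the other 26 had a median of 1.57, close to the 1.55 of all genes without near copies. The asparagine synthetases led the 34, with ASN1 at 2.61 in ACA-K, 3.74 in AGG-OE, 3.70 in AGG-QC, 4.03 in WT-URA and 1.97 in WT, and ASN2 at 1.98, 3.21, 2.84, 3.42 and 2.11 in the same order. LYS9, saccharopine dehydrogenase of lysine synthesis, was below 1 in all 5 libraries, between 0.89 in AGG-OE and 0.62 in WT.

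By the ratio to all codons past 100, the groups of the translation machinery lay closer to the median of all genes or below it. Aminoacyl-tRNA synthetases, which charge tRNAs, had a median of 1.64, with 13 of 21 at 1.5 or more. GRS1, for glycine, had a ramp ratio of 3.04 in ACA-K, 3.76 in AGG-OE, 3.30 in AGG-QC, 3.52 in WT-URA and 2.84 in WT, and a single codon, codon 50, held 38.9% of its ramp footprints in ACA-K and 13.4% in WT. CRS1, for cysteine, lay between 3.16 in WT-URA and 2.13 in WT, and GLN4, for glutamine, between 0.91 in ACA-K and 1.12 in WT-URA. The 8 elongation and termination factors had a median of 1.5. RLI1, a ribosome recycling ATPase, led them with 0.86 in ACA-K, 1.90 in AGG-OE, 1.94 in AGG-QC, 2.01 in WT-URA and 1.38 in WT, followed by NEW1, a translation factor of the ABC family, and EFB1, the exchange factor of eEF1, was the lowest at 0.78 to 0.95. Cytosolic ribosomal proteins had a median of 1.49, with 9 of 18 at 1.5 or more and 5 below 1. RPL2A led them, followed by RPS4A of the small subunit, with 3.35 in ACA-K, 1.52 in AGG-OE, 1.02 in AGG-QC, 1.71 in WT-URA and 1.88 in WT, and RPL8A was the lowest. RPL2A has an empty run of 54 codons from codon 167, in its downstream stretch. RPS4A has one of 43 codons from codon 24, inside its ramp. Of these 18, 7 had an empty run, and the other 11 had a median of 1.60, beside 1.55 over all genes without one. The median length of the 18 was 255.5 codons, beside 502 over all genes. Set against codons up to 200 only, their median was 1.44, above the 1.34 of all genes. Elongation and termination factors then stood at 1.32 and initiation factors at 1.15, both below it. Initiation factors had a median of 1.38, with 8 of 20 at 1.5 or more. The eIF3 subunit NIP1 was the highest, between 1.73 in AGG-QC and 3.04 in ACA-K, and another eIF3 subunit, TIF35, was the lowest, between 0.86 and 1.02. TIF34, also of eIF3, lay between 1.87 in AGG-QC and 2.39 in ACA-K, with 34.3% of its ramp footprints at codon 84 in ACA-K and 11.9% in WT. In NIP1 the density was highest within codons 61 to 100 in every library, and codons 21 to 40 stood at 1.62 in ACA-K and 0.67 in WT.

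Protein quality control and ribosome assembly completed the range. Proteasome subunits had a median of 1.53, with 19 of 30 at 1.5 or more. SCL1, of the core particle, led with 2.24 in AGG-OE to 2.89 in WT-URA, RPN1, of the regulatory particle, lay between 2.35 in AGG-OE and 1.76 in WT, and RPN5, of the same particle, was the lowest, between 0.85 in ACA-K and 1.14 in WT. Cytosolic chaperones had a median of 1.37, with 7 of 21 at 1.5 or more, SSB2 and SSB1 at the top and the co-chaperone STI1 at the bottom, between 0.88 in AGG-QC and 0.70 in WT. Ribosome biogenesis factors had the lowest group median, 1.32, with 10 of 29 at 1.5 or more and 5 below 1. UTP20, a very long protein of the small subunit processome, was the highest, between 2.51 in ACA-K and 4.70 in WT-URA, ahead of NOG1, a GTPase of the large subunit. One of the 29, SPT16, is a histone chaperone listed in error, and the other 28 had a median of 1.32. Set against codons up to 200 only, the ribosome biogenesis group was again the lowest of the 12, at 1.11, but glycolytic enzymes became the highest, at 1.5, and mitochondrial enzymes and aminoacyl-tRNA synthetases, both at 1.28, came to lie below the 1.34 of all genes.

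**Figure D4:**
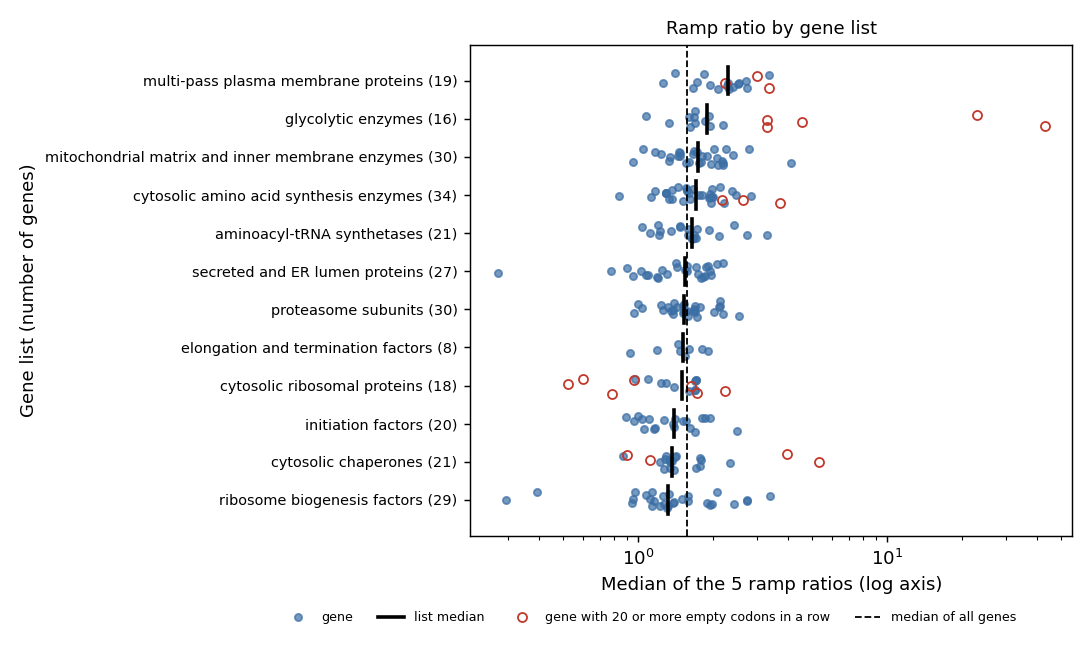
Median of the 5 ramp ratios of each gene on a log axis, in 12 gene lists ordered by their own median (black bars), with open red circles for genes with an empty run of 20 codons or more and a dashed line at 1.56, the median of all 1562 genes. Plasma membrane proteins stand highest at 2.29 and ribosome biogenesis factors lowest at 1.32.

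The ramp of ACA-K, which lacks most copies of the ACA-reading tRNA, was close to that of WT. The median log2 difference in ramp ratio, ACA-K minus WT, was 0.05, which is 1.04-fold, and the ratio was higher in ACA-K in 890 genes and lower in 672. A ratio at least 1.5-fold higher in ACA-K was found for 73 genes (4.67%), and one at least 1.5-fold lower for 24 genes (1.54%). By blocks of 20 codons, the median over genes of the density in ACA-K relative to WT was 1.06 at codons 21 to 40 and 0.95 at codons 81 to 100. Leaving out the highest codon of each stretch gave a median difference of 0.01, and a geometric mean gave 0.0033.

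Among the largest differences, SRP40 had a ramp ratio of 0.54 in ACA-K and 0.26 in WT, a log2 difference of 1.06 (95% counting interval 0.89 to 1.22). SRP40 was picked as the largest rise among 1555 genes, and the interval does not allow for that choice. GCD11, the γ subunit of eIF2, had 2.58 in ACA-K and 1.30 in WT, and its codons 61 to 80 stood at 5.36 in ACA-K and 2.56 in WT. There codon 74 alone held 970 of 6574 ramp footprints in ACA-K and 459 of 4572 in WT. DIP2, of the small subunit processome, had 6.32 in ACA-K and 3.29 in WT, with codon 70 holding 51.6% of its ramp footprints in ACA-K and 31.4% in WT. RUD3, a Golgi matrix protein, had 2.62 in ACA-K and 1.36 in WT, and its highest codon in both was codon 48. Ratios lower in ACA-K were found for YNL208W, with 0.54 in ACA-K and 1.08 in WT, for DLD1, the mitochondrial D-lactate dehydrogenase, with 0.87 in ACA-K and 1.67 in WT, for FAT1, a fatty acid transporter, with 0.89 in ACA-K and 1.60 in WT, and for YCF1, the vacuolar glutathione conjugate transporter, with 1.09 in ACA-K and 1.91 in WT.

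Both strains with an added AGG-reading tRNA had slightly lower ramp ratios than the strain with the empty plasmid. For AGG-OE the median log2 difference from WT-URA was −0.08, or 0.94-fold, and for AGG-QC it was −0.09, also 0.94-fold, and both comparisons rest on the same WT-URA library. The ratio was lower in AGG-OE than in WT-URA in 1073 genes and higher in 489, and it was lower in AGG-QC than in WT-URA in 1090 genes and higher in 472. At 1.5-fold or more, 2 genes were higher (0.128%) and 24 lower (1.54%) in AGG-OE, and 3 were higher (0.192%) and 22 lower (1.41%) in AGG-QC. The difference lay in the first block. At codons 21 to 40 the median density in AGG-OE stood at 0.83 of that in WT-URA gene by gene, and in AGG-QC at 0.86, and in the 3 blocks from codon 41 to codon 100 it lay between 0.975 and 1.01 for AGG-OE and between 0.95 and 0.99 for AGG-QC. With the ramp taken from codon 41, an alternative added after the values were seen, AGG-OE differed from WT-URA by a median log2 of −0.0072 and AGG-QC by one of −0.038. Among the 404 genes with at least 2000 footprints in every library, the median was −0.045 for AGG-OE against WT-URA and −0.060 for AGG-QC against it.

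The genes with the largest differences in these comparisons rested on few footprints, between 60 and 377 in the ramp of each library. APL4, an adaptor protein of clathrin coats, had a ramp ratio of 1.64 in AGG-OE and 3.01 in WT-URA, from 112 ramp footprints in AGG-OE and 180 in WT-URA. TOM1, a very long ubiquitin ligase, had 2.91 in AGG-OE and 4.95 in WT-URA, with codons 21 to 40 at 3.84 in AGG-OE and 9.51 in WT-URA. GCD1, of the exchange factor eIF2B, had 1.66 in AGG-OE and 2.75 in WT-URA, and the protease STE23 had 1.73 in AGG-OE and 2.82 in WT-URA. Higher in AGG-OE were GOR1, a glyoxylate reductase, with 1.74 in AGG-OE and 1.12 in WT-URA, then the replicative helicase subunit MCM2, the Golgi protein TVP23 and the processome protein MPP10, at 1.39-fold to 1.41-fold. In AGG-QC, DIP2 had 1.73 against 3.48 in WT-URA, a log2 difference of −1.01 (95% counting interval −1.50 to −0.53) from 60 ramp footprints in AGG-QC and 168 in WT-URA. DIP2 was picked as the largest fall among 1415 genes, and the interval does not allow for that choice. TRM3, an RNA methyltransferase, had 2.26 in AGG-QC and 4.05 in WT-URA, MAE1, the mitochondrial malic enzyme, had 1.13 in AGG-QC and 1.97 in WT-URA, and RKR1, the ubiquitin ligase of ribosome-associated quality control, had 2.93 in AGG-QC and 5.05 in WT-URA. The ubiquitin protease UBP3 had 1.96 in AGG-QC and 1.24 in WT-URA, and DID4, an ESCRT-III subunit, had 0.86 in AGG-QC and 0.56 in WT-URA. ABP140, an actin-binding protein, and GET1, which helps insert tail-anchored proteins into the ER, were 1.43-fold and 1.42-fold higher in AGG-QC.

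By the mean, the wild type with the empty plasmid and the wild type without it differed more in median ramp ratio than any mutant did from its own wild type. With a geometric mean of counts plus 1 this did not hold over all genes, but it held among those with at least 2000 footprints. By the mean, the median log2 difference, WT-URA minus WT, was 0.29, or 1.22-fold, and the ratio was higher in WT-URA in 1259 genes and lower in 303. At 1.5-fold or more, 246 genes were higher in WT-URA (15.7%) and 7 were lower (0.448%). The difference faded along the gene. The median over genes of the density in WT-URA relative to WT was 3.66 at codons 1 to 20, 1.57 at codons 21 to 40, 1.14 at codons 41 to 60, 1.11 at codons 61 to 80, 1.08 at codons 81 to 100 and 1.0 at codons 161 to 180. The ratio was higher in all 3 plasmid libraries than in both plasmid-free ones in 734 genes (47%) and lower in all 3 in 159 genes (10.2%), and the groups overlapped in the other 669. This grouping was chosen after the values were seen, and all 3 plasmid libraries also had fewer footprints (6011287 to 9127829) than both plasmid-free ones (21855176 and 29706058). The growth medium may also have differed with the plasmid. Plasmid, medium, depth and the handling of the libraries thus cannot be told apart. An exact permutation test of 3 libraries against 2 could not give a two-sided p below 0.2 and was not run. With a geometric mean of counts plus 1 in place of the mean, the median difference between WT-URA and WT was 0.043, smaller in size than that of AGG-OE (−0.044) or AGG-QC (−0.089) from WT-URA, and 410 genes were higher and 414 lower in all 3 plasmid libraries. Among the 404 genes with at least 2000 footprints in every library, the same geometric mean gave 0.15, with 165 genes higher and 84 lower. There the difference was 0.051 for ACA-K from WT, −0.049 for AGG-OE and −0.086 for AGG-QC from WT-URA, all smaller in size. The added 1 weighs more where counts are low, so this measure depends on depth. How much of the drop over all genes comes from depth was not tested.

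**Figure D5:**
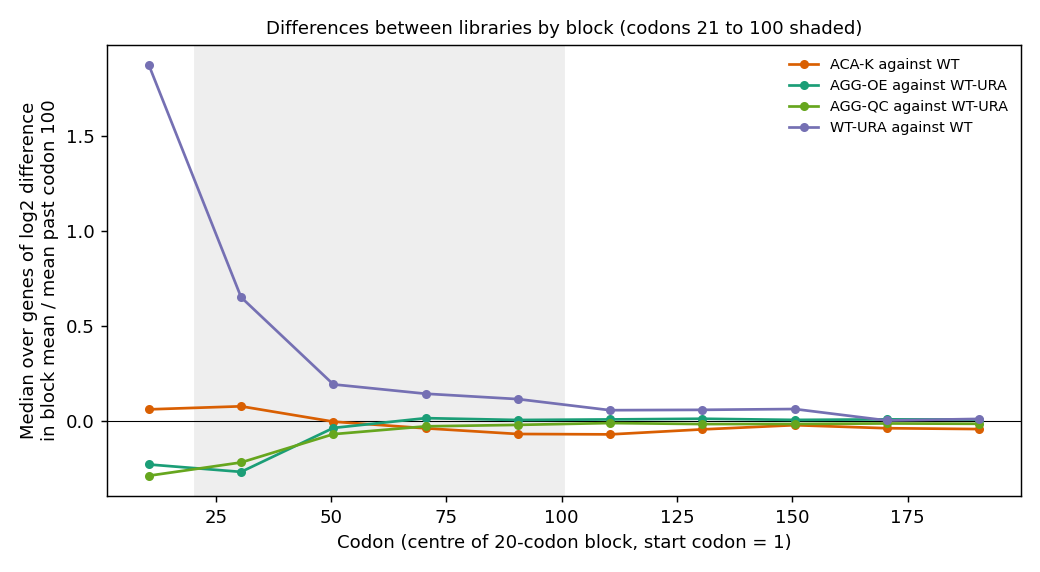
Median over genes of the log2 difference in block density relative to the mean past codon 100, for 4 comparisons of libraries, in blocks of 20 codons up to codon 200, with codons 21 to 100 shaded. WT-URA against WT descends from 0.65 at codons 21 to 40 to 0.12 at codons 81 to 100, both AGG strains lie below 0 at codons 21 to 40, at −0.27 and −0.22, and ACA-K against WT stays between −0.07 and 0.08.

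Genes far from this median showed how uneven the change was along single ramps. ISW1, a chromatin remodelling ATPase, had a ramp ratio of 1.67 in WT-URA and 0.52 in WT. In every library its codons 21 to 60 were nearly without footprints, at 0.23 or less of the downstream mean, and the difference arose at codons 61 to 80, with 4.42 in WT-URA and 0.85 in WT. PRT1, an eIF3 subunit, had 1.46 in WT-URA and 0.56 in WT. Its codons 21 to 40 were at 0.04 or less in all 5 libraries and the excess began at codons 41 to 60, with 3.44 in WT-URA and 0.51 in WT. GAT1, a transcription factor of nitrogen control, had 2.67 in WT-URA and 0.84 in WT, and codon 44 was its highest in all 5 libraries, with 84 of 238 ramp footprints in WT-URA and 24 of 84 in WT. YNL190W, a short cell wall protein, had 2.10 in WT-URA and 0.59 in WT. Its excess lay in codons 21 to 40, at 6.90 in WT-URA and 1.52 in WT, and it has an empty run of 24 codons. On the other side, MHP1, a microtubule-associated protein, had 1.35 in WT-URA and 2.88 in WT, with codon 22 holding 41.7% of its ramp footprints in WT. UTH1 had 0.27 in WT-URA and 0.55 in WT, YSC84, an actin-binding protein, had 0.81 in WT-URA and 1.44 in WT, and RPS4B, which shares an empty run of 43 codons with its copy RPS4A, had 0.96 in WT-URA and 1.69 in WT.

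The gene lists moved with the bulk of genes in the plasmid comparison. All 12 lists had a positive median log2 difference between WT-URA and WT, from 0.14 in secreted and ER lumen proteins to 0.42 in amino acid synthesis enzymes, beside 0.29 over all genes. In the amino acid synthesis list 25 of 34 genes were higher in all 3 plasmid libraries and 1 was lower, whereas among secreted and ER lumen proteins 8 of 27 were higher and 7 lower, beside 47% and 10.2% over all genes. Between ACA-K and WT the list medians ran from −0.11 in ribosomal proteins to 0.20 in initiation factors.

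Ramp ratios were larger in longer genes. In genes of 200 to 299 codons the median was 1.26 in ACA-K, 1.41 in AGG-OE, 1.41 in AGG-QC, 1.48 in WT-URA and 1.24 in WT, and in the 222 genes of 1000 codons or more it was 1.84, 1.91, 1.90, 2.08 and 1.66 in the same order. Spearman's rho of ratio and length over the 1562 genes was between 0.22 and 0.26. With codons past 100 counted only up to codon 200 in the denominator, the rho was between −0.06 and −0.01, and the medians of the longest genes were 1.24 in ACA-K, 1.29 in AGG-OE, 1.36 in AGG-QC, 1.42 in WT-URA and 1.20 in WT. The ratio fell slightly with mRNA level, with rho between −0.15 and −0.10 against the mRNA signal per codon. In the fifth of genes with the least mRNA signal the median was 1.57 in ACA-K, 1.66 in AGG-OE, 1.70 in AGG-QC, 1.90 in WT-URA and 1.49 in WT, and in the fifth with the most it was 1.31, 1.52, 1.53, 1.60 and 1.33 in the same order.

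The footprint minimum left out genes with a somewhat higher median ratio. The 2527 genes of the required length with fewer than 500 footprints in at least 1 library had median ratios of 1.52 in ACA-K, 1.79 in AGG-OE, 1.80 in AGG-QC, 1.99 in WT-URA and 1.51 in WT. Pooled over footprints instead, the order was the other way round in all 5 libraries, with 2.15 in members and 1.95 in the other genes in ACA-K, and 2.14 in members and 1.87 in the other genes in WT. Just inside the minimum, with 500 footprints in the shallowest library, were SNT1 of the Set3 histone deacetylase complex, the membrane fusion protein TLG1 and DIP2, with ratios in WT of 0.98, 1.09 and 3.29. Just outside, with 499, were BEM3, an activator of GTP hydrolysis by Cdc42, the glycosyltransferase ALG8 and the protein kinase YAK1, with ratios in WT of 2.01, 2.24 and 1.14.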

How the data were processed

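Ribosome footprints were measured in 1 library for each of 5 strains, and mRNA in 1 library each. The authors aligned reads with Bowtie 1.0.0 to yeast assembly R63, kept uniquely mapped footprints, assigned each to its active codon and deposited raw footprint counts per gene and per codon. The authors also deposited 1 mRNA signal per gene, whose unit is not named. Groups came from the sample labels. Gene names were matched to the RefSeq table of assembly R64 (5269 of 5373). Ramp ratios used raw counts with no scaling, since each is a ratio within 1 library. Depth ranged from 6011287 to 29706058 footprints. Ratios of named genes have exact 95% binomial counting intervals, which do not allow for the choice of genes by their values. Members, gene lists and the plasmid grouping were chosen with earlier results of these data known. Named genes are the 6 highest and 6 lowest by median ratio, the 4 largest differences each way per comparison among genes with at least 200 footprints in each stretch over the pair of libraries, the 2 highest and the lowest of each list, and 3 genes on each side of the footprint minimum. Genes named only for an empty run, a near copy or a listing error fall outside this rule. The code was tested on simulated data. Scripts ran under Python 3.11.15 with pandas 2.3.3, numpy 2.4.6, matplotlib 3.10.9 and scipy 1.17.1. Codon and protein sequences were not used here. Alternatives were the mean, the denominator, the ramp's start, the footprint minimum and genes left out.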

Additional observations from a re-analysis of the deposited data

How the results depend on the processing

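The median ramp ratios and the 4 median log2 differences were recomputed under 11 alternatives, given here in the order ACA-K, AGG-OE, AGG-QC, WT-URA and WT, and no difference between strains changed its sign. Shifts were marked by the 95% order-statistic interval of each main median over genes. That interval takes genes, not libraries, as its units, so it does not measure error between libraries or strains. Leaving out the last 20 codons, the genes with an empty run or the genes with near copies moved no median and no difference beyond this interval. With a geometric mean of counts plus 1 the medians were 1.31, 1.30, 1.25, 1.33 and 1.31, and the differences were 0.0033 for ACA-K against WT, −0.044 for AGG-OE and −0.089 for AGG-QC against WT-URA and 0.043 for WT-URA against WT. Without the highest codon of each stretch the medians were 1.36, 1.5, 1.49, 1.59 and 1.32, and the differences were 0.013 for ACA-K against WT and 0.26 for WT-URA against WT. With codons up to 200 as the downstream stretch the medians were 1.25, 1.34, 1.35, 1.43 and 1.23, with differences of −0.094 for AGG-OE, −0.074 for AGG-QC and 0.26 for WT-URA against WT. A minimum of 100 footprints gave 1.47, 1.68, 1.68, 1.82 and 1.45, with −0.11 for AGG-OE, −0.12 for AGG-QC and 0.34 for WT-URA against WT. A minimum of 2000 footprints gave 1.60 in WT-URA and 1.35 in WT, with −0.045 for AGG-OE, −0.060 for AGG-QC and 0.25 for WT-URA against WT. The next alternatives, and leaving out near copies, were chosen after seeing the data. A ramp from codon 31 gave 1.53 in AGG-QC and 1.60 in WT-URA, with differences of 0.030 for ACA-K, −0.032 for AGG-OE, −0.054 for AGG-QC and 0.18 for WT-URA against WT. A ramp from codon 41 gave 1.52 in AGG-OE, 1.5 in AGG-QC and 1.53 in WT-URA, with 0.021 for ACA-K, −0.0072 for AGG-OE, −0.038 for AGG-QC and 0.14 for WT-URA against WT. The geometric mean with the minimum of 2000 footprints gave 1.39 in ACA-K, 1.43 in AGG-OE, 1.38 in AGG-QC and 1.47 in WT-URA, with −0.049 for AGG-OE and 0.15 for WT-URA against WT. The cause of these shifts was not tested.

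Of 15 counts of genes past a ratio or a fold, 15 differed by over 1.5 times under each other footprint minimum, which also changes the number of genes, 14 under the geometric mean with or without the minimum of 2000 footprints, and 7 with codons up to 200 as the downstream stretch. As a share, genes higher in all 3 plasmid libraries were 47.0% in the main set, 50.5% at 2000 footprints and 43.8% at 100. Genes lower in all 3 were 10.2%, 10.6% and 8.56% in the same order. The counts under another minimum thus mostly follow the number of genes for this grouping. Under the geometric mean, a ratio of 1.5 or more was found for 467 genes in ACA-K, 394 in AGG-OE, 286 in AGG-QC and 446 in WT-URA, against 703, 867, 865 and 975 by the mean. Genes at least 1.5-fold higher and lower then numbered 21 and 9 for ACA-K against WT (73 and 24 by the mean), 0 and 0 for AGG-OE (2 and 24) and AGG-QC (3 and 22), and 57 and 28 for WT-URA against WT (246 and 7). With codons up to 200, 422 genes had 1.5 or more in WT (656), 71 were lower in ACA-K, 6 higher and 40 lower in AGG-OE, 11 higher and 51 lower in AGG-QC, and 17 lower in WT-URA than in WT. No paired analysis was possible because each strain had 1 library and no test was run. A filter on shared peptides and the density by amino acid were not run, since no protein sequences were used here. At these depths 10.3% to 34.0% of ramp codons had no footprint, which limits values of single codons and of genes near the minimum.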
